A study of Mus musculus with 12 samples.

Results

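The genes followed here were 54 mitosis genes, whose products start, carry out or check the division of a cell, from cyclins and mitotic kinases to kinesins and condensin subunits. They were found on the arrays by name: a probe set counted where a member was the only gene symbol annotated to it, and where a gene had several, the brightest on average across the 12 arrays stood for it. This gave 53 of the 54 genes, out of 10817 genes tested in all, and Ccnb1 was not analysed here. All 53 lay above the filter level of 16 intensity units on all 12 arrays, with values between 45.8 and 9372 units, so no member entered through one group alone.

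The RNA of 12 samples was hybridised to Affymetrix mouse arrays, and the samples formed 4 groups of 3 that their titles call biological replicates. The groups were Msi2 mutant bcCML, wild-type bcCML, Msi2 mutant AML and wild-type AML. All samples carried the strain label B6;CB-Msi2Gt(pU-21T)2Imeg, a gene trap line. Donor stem and progenitor cells (KLS cells) of Msi2 Gt/Gt or wild-type mice were infected with BCR-ABL/NUP98-HOXA9 to give blast crisis chronic myeloid leukaemia (bcCML) or with MLL-AF9 to give acute myeloid leukaemia (AML), and then transplanted. The trap sat in every donor cell rather than in a chosen cell type. The sources used here give neither the host animals' genotype nor whether animals were pooled. No group received a drug. Leukaemic stem cells were sorted as Lin- cells from bcCML and as Lin-Sca1-ckit+ cells from AML, so that in any comparison of the leukaemias the disease, its oncogenes and the sort gate cannot be told apart.

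A dividing cell enters mitosis when Cdk1, bound to cyclin A or B, is switched on by Cdc25 phosphatases, and Plk1 and the Aurora kinases then drive spindle assembly. The spindle assembly checkpoint holds back the anaphase promoting complex until all kinetochores are attached, after which cohesin is cut and the chromatids part. Most of these genes are transcribed shortly before and during division, under a repressor complex (DREAM) and activators (B-Myb with MuvB, Foxm1 and NF-Y) that act at a promoter element called the cell cycle genes homology region and at CCAAT boxes. In bulk RNA, fewer dividing cells and less of a transcript per dividing cell cannot be told apart.

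Promoter sequence is shown as description, because mitosis genes are already known for the elements named above. The part of these motifs in how the members moved from array to array was not tested. RefSeq windows of 300 bases on build GRCm38.p6, 250 bases before a gene's start and 50 from it, were found for 46 of the 54 listed genes, in 49 windows. The core letters of the cell cycle genes homology region, TTTGAA on either strand, stood in 36 of the 49 windows (73.5%), against 17.9% of all 32851 windows in the table. CCAAT on either strand also stood in 36 windows (73.5%), against 37.4% of all windows, and both motifs in 31 (63.3%), against 6.95%. The 2 motifs can share at most 1 base. Within 100 bases before the start or in the 50 from it, TTTGAA stood in 67.3% of the members' windows and in 8.01% of all windows. Genes of DNA replication, which peak earlier in the cell cycle, held TTTGAA in 14.8% of their windows and CCAAT in 51.9%. Other mitosis genes, from a list that leaves out the members, held TTTGAA in 33.3% of 108 windows, CCAAT in 55.6% and both in 21.3%. Near the start, as defined above, they held TTTGAA in 21.3% of windows. The windows of Ccnb2 (cyclin B2), Cdc20 (an activator of the anaphase promoting complex), Plk1 and Cdk1 follow, 5′ to 3′ on the gene's strand, with each TTTGAA and each CCAAT (written ATTGG where it lies on the other strand) in capitals.
Ccnb2, chr9:70421505-70421804, minus strand: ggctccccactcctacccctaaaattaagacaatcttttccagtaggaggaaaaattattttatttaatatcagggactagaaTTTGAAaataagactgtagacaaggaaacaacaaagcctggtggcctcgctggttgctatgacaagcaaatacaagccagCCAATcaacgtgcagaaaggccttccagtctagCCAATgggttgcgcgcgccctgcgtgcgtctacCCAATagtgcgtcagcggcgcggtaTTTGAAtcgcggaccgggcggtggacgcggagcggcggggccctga
Cdc20, chr4:118437294-118437593, minus strand: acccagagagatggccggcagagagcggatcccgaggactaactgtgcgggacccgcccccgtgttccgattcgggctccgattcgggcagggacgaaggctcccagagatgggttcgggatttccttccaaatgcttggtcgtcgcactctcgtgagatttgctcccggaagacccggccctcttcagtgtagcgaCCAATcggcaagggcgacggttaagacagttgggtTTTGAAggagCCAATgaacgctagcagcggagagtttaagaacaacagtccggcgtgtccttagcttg
Plk1, chr7:122159185-122159484, plus strand: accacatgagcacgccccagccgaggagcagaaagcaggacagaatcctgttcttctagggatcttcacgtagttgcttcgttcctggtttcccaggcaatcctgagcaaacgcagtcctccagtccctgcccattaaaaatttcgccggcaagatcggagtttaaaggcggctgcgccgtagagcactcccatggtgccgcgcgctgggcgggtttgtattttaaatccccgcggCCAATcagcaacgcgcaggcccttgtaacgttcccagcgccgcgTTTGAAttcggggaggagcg
Cdk1, chr10:69352863-69353162, minus strand: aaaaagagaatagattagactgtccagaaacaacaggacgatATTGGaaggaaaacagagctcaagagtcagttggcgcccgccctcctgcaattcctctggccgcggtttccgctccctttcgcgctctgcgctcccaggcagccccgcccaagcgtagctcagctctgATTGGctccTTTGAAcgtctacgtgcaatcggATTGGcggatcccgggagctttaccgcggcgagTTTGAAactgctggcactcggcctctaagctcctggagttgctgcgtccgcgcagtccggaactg
Ccnb2 held TTTGAA 5 bases past its start and again 167 bases before it, with 3 CCAAT boxes between, at 87, 54 and 21 bases before the start. Cdc20 held it 18 bases before the start and Plk1 31 bases past the start. Cdk1 held 2 copies, 71 and 15 bases before the start. By gene, 33 of the 46 had TTTGAA, 33 had CCAAT and 8 had neither (Birc5, Kif18a, Mad2l1, Ncaph, Nuf2, Nusap1, Plk4 and Pttg1). These matches are letters in a window and were not tested as binding sites.

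The trapped gene was read out before the members. Msi2, which encodes an RNA-binding protein, measured 487, 721 and 608 units in Msi2 mutant bcCML, against 2583, 4319 and 4579 units in wild-type bcCML. In AML it measured 52.9, 69.1 and 86.9 units in Msi2 mutant cells, against 325, 181 and 430 units in wild-type cells. The groups did not overlap in either leukaemia, and the log2 difference was -2.63 ± 0.34 in bcCML and -2.11 ± 0.34 in AML (SE; limma adjusted p = 0.0200 and 0.0211).

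The arrays were alike in overall signal, with medians between 13.1 and 13.8 units and correlations between replicates from 0.938 to 0.981. The first principal component (76.2% of the variance) parted the leukaemias. On the second (4.9%), AML mutant array 1 scored 58.2, against -20.0 to -1.20 for the remaining arrays of AML. Its 10 monocyte and macrophage marker genes averaged 1.58 above their mean over 12 arrays on the log2 scale, against 3.64 and 3.01 on the other mutant AML arrays and 2.90 to 3.22 on wild-type AML arrays. The summed level of those 10 genes ran from 18149.9 to 69598.5 units on mutant AML arrays, 34847 to 50788 on wild-type AML arrays and 799 to 1312 over all bcCML arrays. F13a1 of that list went the other way. It had 3702 units on AML mutant array 1, 3318 and 2626 on the other mutant AML arrays and 2420, 3781 and 1798 on wild-type AML arrays. Erythroid markers (9 genes) averaged 2.93 to 3.30 in mutant bcCML and 2.16 to 3.75 in wild-type bcCML, against -3.21 to -2.69 over all AML arrays. Kit, the receptor used in the AML gate, was above 16 units on all 12 arrays (78.2 to 546). The 9 neutrophil granule markers summed to 149824 to 179212 units in mutant AML and 77133 to 122191 units in wild-type AML, sums without overlap. In bcCML they summed to 3180.1 to 14895 units in mutant and 10481 to 34845 units in wild-type cells. As log2 averages the AML groups did overlap, at 2.18 to 2.55 in mutant and 1.38 to 2.28 in wild-type AML. Mmp8 of that list was lower in mutant AML, at 9.92 to 23.9 units against 97.1 to 288 units in wild-type AML. Of the 10 T and NK cell markers with a probe set, which a Lin- gate should lower, Cd3e, Cd3d, Cd3g, Cd4 and Cd8a lay below 16 units on all arrays. Others of that list did not: Nkg7 lay between 1482 and 10650.1 units on all arrays, Thy1 at 1132 to 2359 units in mutant and 1001 to 2358 units in wild-type bcCML, and Gzma reached 969 units on mutant bcCML array 2. Itgam measured 48.8 to 86.6 units in mutant AML, 35.0 to 49.6 in wild-type AML and at most 4.52 in bcCML.

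The 53 genes moved together from array to array, also among arrays of the same group. Each gene was set against its own mean over the 12 arrays, and the 53 deviations were averaged for each array. On the log2 scale these averages were -0.34, 0.11 and 0.08 for the arrays of mutant bcCML and -0.44, 0.04 and -0.17 for wild-type bcCML. They were 0.70, -0.42 and -0.11 for mutant AML and 0.29, 0.29 and -0.03 for wild-type AML. As group means they came to -0.05 ± 0.25 for mutant bcCML, -0.19 ± 0.24 for wild-type bcCML, 0.06 ± 0.58 for mutant AML and 0.18 ± 0.18 for wild-type AML (SD, n = 3 each). The spread inside mutant AML was thus larger than any distance between group means.

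**Figure D1:**
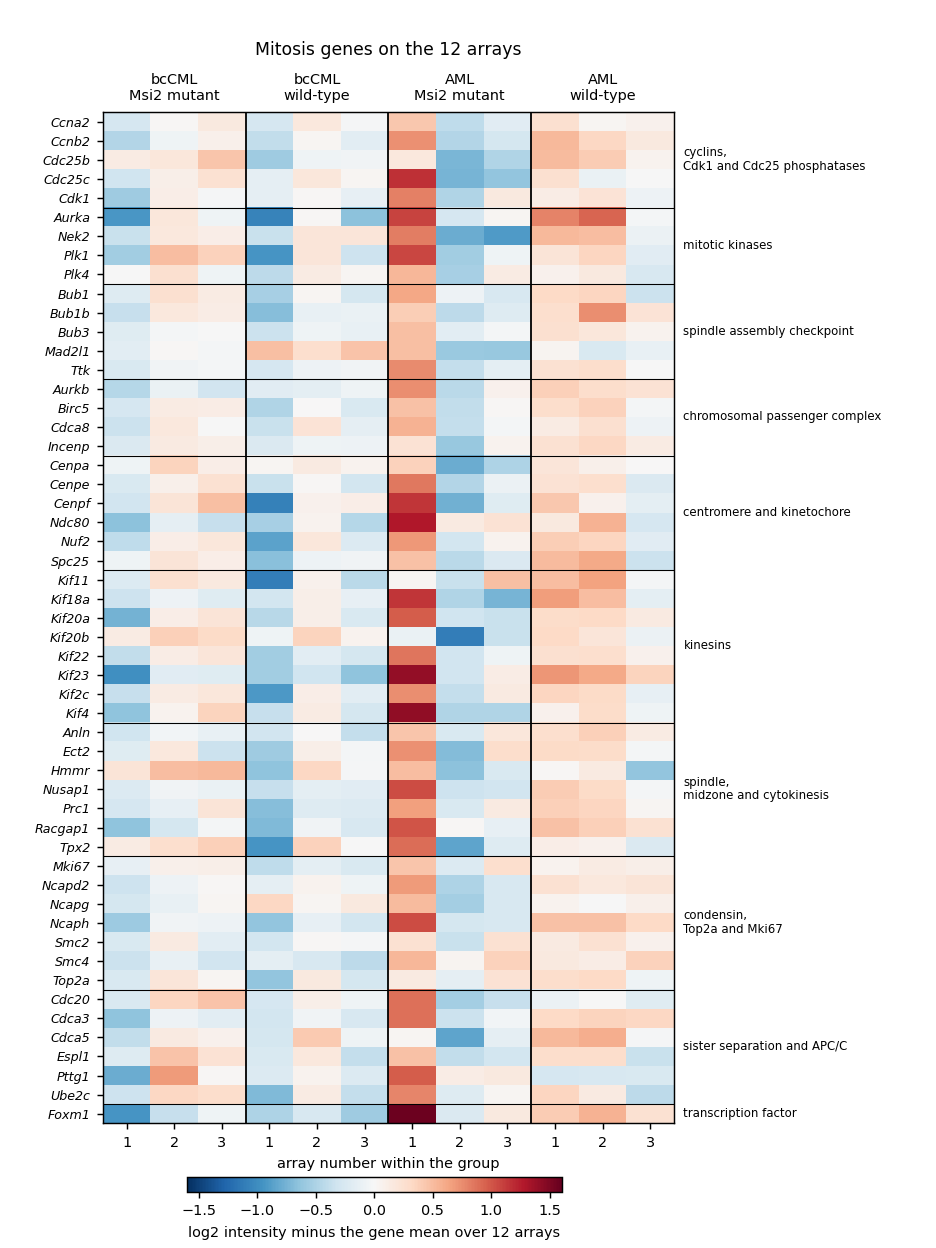
Heat map of the 53 mitosis genes (rows, by role) on the 12 arrays (columns, 3 per group), coloured by log2 intensity minus the gene's mean over 12 arrays. AML mutant array 1 is red in nearly every row, with an average of 0.70, and AML mutant array 2 is mostly blue, with an average of -0.42.

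AML mutant array 1 stood out. It was the highest of its group for 50 of the 53 members, where the same held for 47.2% of all genes tested. Kif11, Smc2 and Top2a were the exceptions, each highest on mutant array 3. For 43 members (81.1%) this array was the highest of all 12, against 17.4% of all genes. AML mutant array 2 was the lowest of its group for 47 members (88.7%, against 34.8% of all genes). The median distance between the highest and lowest mutant AML array was 1.13 on the log2 scale over members and 0.55 over all genes.

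Other groups showed the same joint movement on a smaller scale. In mutant bcCML, array 1 was the lowest for 51 members (all genes, 43.2%), and in wild-type bcCML array 1 was the lowest for 46 (40.1%) and array 2 the highest for 44 (42.3%). In wild-type AML, array 3 was the lowest for 44 members (46.9%). The median range within a group was 0.49 in mutant bcCML, 0.48 in wild-type bcCML and 0.36 in wild-type AML, against 0.40, 0.45 and 0.46 over all genes. On AML mutant array 1, DNA replication genes averaged 0.04 and 31 of 54 were highest in the group (57.4%, against 47.2% of all genes). The 119 other mitosis genes, named apart from the members, averaged 0.38 on it and 94 were highest (79.0%). The part that the low average of monocyte markers on AML mutant array 1 played in its high mitosis genes was not tested.

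**Figure D2:**
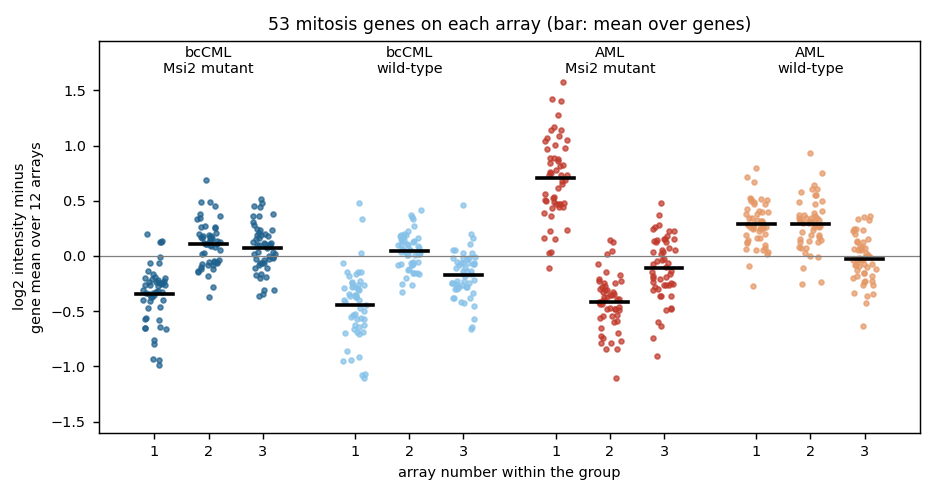
Deviations of the 53 mitosis genes (points) on each array, as log2 intensity minus the gene's mean over 12 arrays, with the array's average as a bar. Arrays of a group differ most in mutant AML, where the averages are 0.70, -0.42 and -0.11.

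The first question was whether the loss of Msi2 moved mitosis genes in bcCML. No member passed the test in either direction (limma, Benjamini-Hochberg adjusted p under 0.05), where 0.139% of all genes tested did, and 0 members had an unadjusted p under 0.05, against 8.32% of all genes. The smallest adjusted p was 0.637. Positive differences outnumbered negative ones, 41 against 12, and the median over the 53 was 0.10 in log2 units (all genes, -0.02, with 45.9% positive). That excess depended on single arrays: the median was 0.024 without wild-type array 1 (29 positive), 0.025 without mutant array 2 (30 positive), 0.19 without wild-type array 2 (47 positive) and 0.25 without mutant array 1 (49 positive). Taken as pairs of the same number, mutant arrays were higher than wild-type arrays in all 3 pairs for 24 members (45.3%, against 15.9% of all genes) and lower in all 3 for 3 members (5.66%, against 22.4%). The labels state no such pairing, which was taken from correlations in these same data. The members also moved together from array to array, so these counts are not independent observations. The average over members was higher in the mutant array by 0.10, 0.06 and 0.25 in pairs 1, 2 and 3. In 2 members, Cdc25b and Mki67, all mutant arrays lay above all wild-type arrays (background 5.83% of genes), and in 1, Mad2l1, all lay below (10.1%).

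Among the regulators that start mitosis, Cdc25b, a phosphatase that switches on Cdk1, measured 1624, 1679 and 2008 units in mutant bcCML, against 996, 1407 and 1426 units in wild-type bcCML. The arrays did not overlap, and the difference was 0.48 ± 0.24 on the log2 scale (SE; limma adjusted p = 0.637). Cdk1, the kinase itself, had 1669.7, 2671 and 2448 units in mutant and 2247, 2511 and 2257 units in wild-type bcCML, a log2 difference of -0.07 ± 0.29 with overlapping arrays. Plk1, a kinase of spindle assembly and mitotic entry, had 126, 260.3 and 238 units in mutant and 96.1, 212 and 147 units in wild-type bcCML. Array 1 was the lowest of both groups, and the mutant array was the higher one in each same-numbered pair. The difference of 0.46 ± 0.44 did not pass (limma adjusted p = 0.851).

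Mad2l1, which encodes the checkpoint protein Mad2, ran the other way from most members. It had 1260.1, 1429 and 1379 units in mutant bcCML and 1962, 1700.1 and 1937 units in wild-type bcCML, a log2 difference of -0.46 ± 0.26 (limma adjusted p = 0.677). Its wild-type level was highest on array 1, the array on which 46 members were lowest. Other checkpoint genes had positive differences, with Bub1 at 0.32 and Bub1b at 0.28. In the chromosomal passenger complex, the kinase gene Aurkb had 948, 1217 and 1055 units in mutant and 1153, 1175 and 1239.6 in wild-type bcCML, a difference of -0.15 ± 0.25.

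The largest positive differences in bcCML belonged to Kif11, the motor that pushes spindle poles apart, and Hmmr, a spindle-associated protein. Kif11 had 1089, 1524 and 1422 units in mutant and 592, 1334 and 945 units in wild-type bcCML, a log2 difference of 0.55 ± 0.32. Hmmr had 1482, 1807 and 1842 units in mutant and 827, 1625 and 1273 units in wild-type bcCML, a difference of 0.51 ± 0.34. In both genes wild-type array 2 lay above mutant array 1 and all other wild-type arrays below it, but within each same-numbered pair the mutant array was higher. Neither gene passed (limma adjusted p = 0.696 and 0.742). All 7 genes of the spindle, midzone and cytokinesis had positive differences, between 0.02 and 0.51, as did 7 of 8 kinesins.

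Genes of condensin, with Top2a and Mki67, had a median difference of 0.02 in bcCML, and the 6 genes of sister separation one of 0.18. Mki67, the proliferation marker Ki-67 that coats mitotic chromosomes, had 4844, 5644 and 5686 units in mutant and 4024, 4786 and 4480.1 units in wild-type bcCML. These groups did not overlap, and the difference was 0.28 ± 0.17 (limma adjusted p = 0.705). Top2a, the topoisomerase that untangles chromatids, differed by 0.24 ± 0.22 and the condensin subunit gene Ncapg by -0.30 ± 0.23. Among genes of sister separation, Ube2c, the ubiquitin-conjugating enzyme of the anaphase promoting complex, differed by 0.41 ± 0.33 and Espl1, the protease separase, by 0.31 ± 0.29. Cdc20 differed by 0.27 ± 0.34 and Cdca3, a protein of mitotic entry, by -0.10 ± 0.28. Foxm1, a transcription factor that activates many members, had 45.8, 68.2 and 84.2 units in mutant and 62.3, 73.4 and 59.4 units in wild-type bcCML, a difference of -0.02 ± 0.40.

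In AML the same comparison gave 0 calls among members, with 1.52% of all genes called, and 3 members (Cdc25b, Kif20b and Cdca5) had an unadjusted p under 0.05 (5.66%, against 14.2% of all genes). Here 40 differences were negative and 13 positive, with a median of -0.10 (all genes, -0.05, with 42.9% positive). The smallest adjusted p was 0.241, for Cdc25b. Kif20b was the only member with all mutant arrays below all wild-type arrays (background 11.6%), and Pttg1 the only member with all above (5.18%). The summed neutrophil granule markers given above differed between the same groups without overlap, while their log2 averages overlapped. The part of these markers in the values of the members was not tested.

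Cdc25b measured 1657, 892 and 1062 units in mutant AML, against 2090.5, 1964 and 1534 units in wild-type AML. Mutant array 1 lay within the wild-type range and the other mutant arrays below it, and the log2 difference was -0.67 ± 0.24 (SE; limma adjusted p = 0.241). Kif20b, a kinesin of the spindle midzone, measured 571, 285 and 479 units in mutant AML and 765, 699 and 575 units in wild-type AML, a difference of -0.66 ± 0.24 (limma adjusted p = 0.247). Cdca5 encodes sororin, which protects cohesion between sister chromatids. It had 1019.9, 556 and 901 units in mutant AML and 1438, 1497 and 986 units in wild-type AML, a difference of -0.68 ± 0.28 (limma adjusted p = 0.307).

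Pttg1, which encodes securin, the inhibitor of the protease that cuts cohesin, was the member with the largest positive difference in AML. Mutant AML arrays read 9372, 5194 and 5292 units and wild-type AML arrays 3952, 3996 and 4041 units. The wild-type arrays lay close together and all mutant arrays above them, and the difference of 0.67 ± 0.34 did not pass (limma adjusted p = 0.422). Ndc80, a kinetochore protein that binds microtubules, had 634, 289 and 305 units in mutant and 292, 383 and 217 units in wild-type AML, a difference of 0.40 ± 0.33. Mutant array 1 was the highest of these arrays, and the others overlapped. Nek2, a centrosome kinase, had 353, 115 and 106 units in mutant and 286, 280.4 and 187 in wild-type AML, with 1 mutant array above and 2 below all wild-type arrays (-0.60 ± 0.41).

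Of the other members named in bcCML, Bub1b differed by -0.49 ± 0.27 in AML and Kif11 by -0.31 ± 0.32, and most had differences nearer 0. Cdk1 had 4356, 1782 and 2762 units in mutant and 2686, 2888 and 2349 units in wild-type AML, a difference of 0.08 ± 0.29. Plk1 had 388, 126 and 176 units in mutant and 213, 235 and 164 units in wild-type AML (0.02 ± 0.44). In both genes mutant array 1 was the highest of the 6 arrays and mutant array 2 the lowest. The same order held for Foxm1, with 262, 75.1 and 97.8 units in mutant and 117, 129 and 104 units in wild-type AML (0.10 ± 0.40), and for Cdc20, with 3683, 1366 and 1551 units in mutant and 1867, 1990.4 and 1737 units in wild-type AML (0.09 ± 0.34). Mki67 differed by 0.07 ± 0.17, Top2a by -0.10 ± 0.22, Aurkb by -0.17 ± 0.25, Ube2c by 0.18 ± 0.33 and Smc4 by 0.10 ± 0.16.

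These AML values rested on which mutant array was kept. Without mutant array 1 the median of the members was -0.44, with 51 negative and 2 positive, while the median of all genes was -0.09. Still 0 members passed, where 1.68% of all genes did. With all arrays, 14.2% of all genes had an unadjusted limma p under 0.05. Without mutant array 1, 20 members did, and the share of all genes at that cut is not given here. The smallest adjusted p then was 0.0636, for Cenpa, the histone variant of centromeres (-0.74), and Nek2 (-1.16) and Cdc25b (-0.92) followed with limma adjusted p values of 0.0652 and 0.0725. Without mutant array 2 the median was 0.09, with 40 positive, 0 members called and 0 with an unadjusted p under 0.05.

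**Figure D3:**
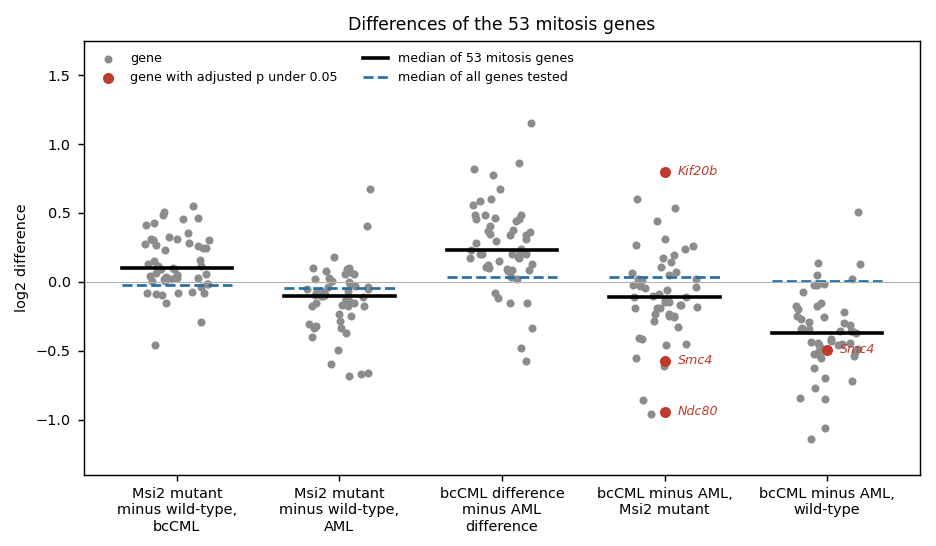
Log2 differences of the 53 mitosis genes (points) in 5 comparisons, with the median over members (black bar) and over all genes tested (dashed). Red points passed an adjusted p of 0.05: none for Msi2 mutant minus wild-type, Kif20b, Smc4 and Ndc80 for mutant bcCML minus mutant AML, and Smc4 for wild-type bcCML minus wild-type AML.

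Averaged over both leukaemias, the Msi2 mutant minus wild-type difference of the members had a median of 0.01 (all genes, -0.04), with 28 positive and 25 negative. No member passed in limma, where 0.471% of all genes did, and 0 had an unadjusted p under 0.05 (all genes, 13.7%). The balance turned with single arrays: without AML mutant array 1 the median was -0.16, with 42 negative, and without AML mutant array 2 it was 0.13, with 41 positive. Without AML mutant array 1, 11 members had an unadjusted limma p under 0.05, and the share of all genes at that cut is not given here. Over all arrays left out in turn the median ran from -0.16 to 0.13. The most positive were Pttg1 (0.38), Ube2c (0.30), Hmmr (0.27) and Plk1 (0.24), and the most negative Cdca5 (-0.38), Nek2 (-0.32), Mad2l1 (-0.29) and Kif20b (-0.25). Intervals were wide enough to hold sizeable changes: for Cdk1, the 95% interval of this averaged difference ran from -0.46 to 0.46, for Mki67 from -0.10 to 0.45 and for Plk1 from -0.45 to 0.94.

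Whether the Msi2 difference was itself unlike in the leukaemias was tested by subtracting the AML difference from that in bcCML. The median over members was 0.23 (all genes, 0.03), with 46 positive and 7 negative (all genes, 53.5% positive). No member passed in limma, nor did any gene (0.0% called), and 2 members, Cdc25b and Kif20b, had an unadjusted p under 0.05 (3.77%, against 9.37% of all genes). Cdc25b had the largest value, 1.15 ± 0.35 (SE; limma adjusted p = 0.326), set by mutant arrays above wild-type in bcCML and mostly below it in AML. Kif11 (0.86), Kif20b (0.82) and Bub1b (0.77) came next, and Pttg1 (-0.58), Ndc80 (-0.48), Mad2l1 (-0.33) and Ncapg (-0.16) were the most negative. Without AML mutant array 1 the median was 0.62, with 51 positive and 0 members called (all genes, 0.0185%), and without AML mutant array 2 it was 0.02, with 29 positive. Without AML mutant array 1, 15 members had an unadjusted limma p under 0.05, and the share of all genes at that cut is not given here.

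Between the leukaemias in wild-type cells, few mitosis genes passed although much of the transcriptome did. Of all genes tested 36.9% passed (17.7% higher and 19.3% lower in bcCML). Of the 53 members 1 did: Smc4, an ATPase subunit shared by both condensin complexes, which fell in bcCML. In limma 10 members (18.9%) had an unadjusted p under 0.05, against 45.9% of all genes. Differences were negative in 48 members and positive in 5, with a median of -0.37 (all genes, 0.00, with 50.3% positive). It was -0.23 without wild-type bcCML array 1 (43 negative) and between -0.50 and -0.30 without any other array. All bcCML arrays lay below all AML arrays in 21 members (39.6%, background 26.8%) and above them in Mad2l1 and Pttg1 (3.77%, background 25.6%).

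Smc4 had 2934, 2755 and 2463 units in wild-type bcCML, against 3672, 3579 and 4223 units in wild-type AML. The groups did not overlap, and the difference was -0.49 ± 0.16 on the log2 scale (SE; limma adjusted p = 0.0308). The call ended without wild-type AML array 1 or 3 (adjusted p = 0.0609 and 0.0923) or without wild-type bcCML array 2 or 3 (0.0642 and 0.108), or with a replicate block over all groups (0.0510), with differences from -0.55 to -0.42 over all arrays left out in turn.

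Larger differences than that of Smc4 did not pass, since their arrays spread more. Aurka, the kinase of the spindle poles, had 338, 717 and 449.7 units in wild-type bcCML and 1232, 1359.8 and 694 units in wild-type AML, a difference of -1.14 ± 0.44 with overlap (limma adjusted p = 0.0683). Kif23, a motor of the spindle midzone and cytokinesis, had 446, 526 and 422 units in wild-type bcCML and 1078, 1002 and 839 units in wild-type AML. Its groups did not overlap, and the difference was -1.06 ± 0.39 (limma adjusted p = 0.0532). Kif23 ranged over 0.32 log2 units within wild-type bcCML and 0.36 within wild-type AML, against 1.71 within mutant AML. Racgap1, its partner in the centralspindlin complex, differed by -0.70 ± 0.30 (limma adjusted p = 0.0927).

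In the other role groups the picture was similar. Foxm1 had 62.3, 73.4 and 59.4 units in wild-type bcCML and 117, 129 and 104 units in wild-type AML, without overlap (-0.84 ± 0.40, limma adjusted p = 0.127). Bub1b, which encodes the checkpoint protein BubR1, differed by -0.72 ± 0.27, Prc1, which bundles midzone microtubules, by -0.62 ± 0.24, Kif11 by -0.85 ± 0.32 and Birc5 (survivin) by -0.45 ± 0.23. Mki67 had 4024, 4786 and 4480.1 units in wild-type bcCML and 5518, 5805 and 5671 units in wild-type AML, also without overlap (-0.36 ± 0.17, limma adjusted p = 0.133). Cdk1 (-0.17 ± 0.29), Cdc20 (0.02 ± 0.34), Plk1 (-0.49 ± 0.44) and Top2a (-0.43 ± 0.22) overlapped between the leukaemias, and Aurkb (-0.43 ± 0.25) did not.

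The 5 positive differences were led by Mad2l1, with 1962, 1700.1 and 1937 units in wild-type bcCML and 1448, 1196 and 1297 units in wild-type AML (0.51 ± 0.26, limma adjusted p = 0.152). All its bcCML arrays lay above all AML arrays, the reverse of Bub1b and Bub3 in the same checkpoint. Ncapg (0.13), Pttg1 (0.13), Hmmr (0.05) and Cdc20 (0.02) followed.

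The count of calls in wild-type cells depended on the estimate of the spread, to which the mutant arrays also contribute. Without AML mutant array 1, which is no array of this comparison, the same differences gave 14 calls, 13 lower and 1 higher, with 40.2% of all genes called. The strongest was then Kif23 (limma adjusted p = 0.00614), and Ncaph (-0.77), Foxm1 (-0.84), Aurka (-1.14) and Racgap1 (-0.70) were among the lower genes, with Mad2l1 (0.51) the higher one. A fit on the 6 wild-type arrays alone called 9 members, 8 lower and Mad2l1 higher, with 34.9% of all genes called. Weighting the arrays by their spread called 31 members, 30 of them lower, with 56.6% of all genes called.

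**Figure D4:**
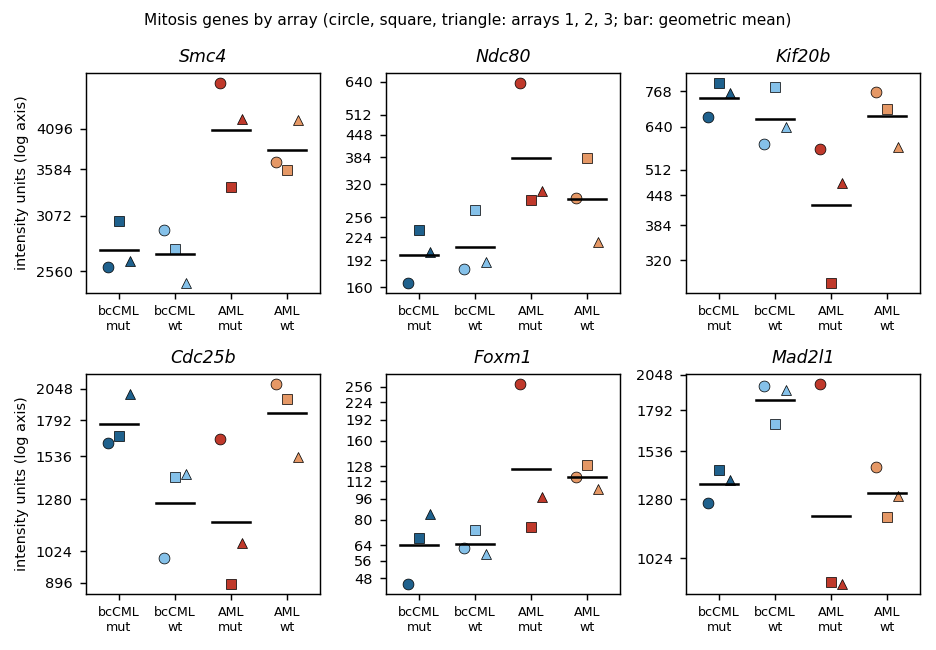
Intensity units (log axis) of Smc4, Ndc80, Kif20b, Cdc25b, Foxm1 and Mad2l1 on each array (circle, square and triangle for arrays 1, 2 and 3), with the geometric mean of each group as a bar. Smc4 lies lower on all bcCML arrays than on all AML arrays. AML mutant array 1 is the highest circle in Smc4, Ndc80, Foxm1 and Mad2l1.

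Between the leukaemias in Msi2 mutant cells, 3 members passed, where 45.1% of all genes did (23.2% higher and 21.9% lower in bcCML): Kif20b rose in bcCML, and Smc4 and Ndc80 fell. In limma 6 members (11.3%) had an unadjusted p under 0.05, against 52.3% of all genes. The median was -0.11 (all genes, 0.03), with 35 negative and 18 positive. These 3 were also the only members whose arrays did not overlap, against 29.0% of all genes higher and 26.5% lower without overlap.

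Smc4 had 2597, 3023 and 2646 units in mutant bcCML, against 4764, 3383 and 4234 units in mutant AML, a log2 difference of -0.57 ± 0.16 (SE; limma adjusted p = 0.0131). It passed under all alternatives run, with differences between -0.71 and -0.46. Kif20b had 671, 801 and 762 units in mutant bcCML, against 571, 285 and 479 units in mutant AML, a difference of 0.80 ± 0.24 (limma adjusted p = 0.0223). That call ended without AML mutant array 2 (0.51, adjusted p = 0.0614), or without mutant bcCML array 2 (0.0689) or 3 (0.0603), and in a fit on the 6 mutant arrays alone (0.0677). Ndc80 had 165, 235 and 202 units in mutant bcCML, against 634, 289 and 305 units in mutant AML, a difference of -0.94 ± 0.33 (limma adjusted p = 0.0368). Its call ended without AML mutant array 1, which lay far above the others (-0.58, adjusted p = 0.112), and without wild-type AML array 1 (0.0509) or mutant bcCML array 1 (0.112) or 3 (0.0781). It also ended with no filter on dim probe sets (0.0789) and in the fit on the 6 mutant arrays (0.0737).

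Members that did not pass in mutant cells included Foxm1, with 45.8, 68.2 and 84.2 units in mutant bcCML and 262, 75.1 and 97.8 units in mutant AML (-0.96 ± 0.40, limma adjusted p = 0.0757). Kif23 differed by -0.86 ± 0.39 and Racgap1 by -0.61 ± 0.30, both overlapping between groups. On the positive side stood Cdc25b (0.60 ± 0.24, limma adjusted p = 0.0692), Hmmr (0.54 ± 0.34) and Cenpa (0.44 ± 0.25).

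AML mutant array 1 turned the direction of the mutant comparison too. Without it the median was 0.19, with 38 positive and 15 negative, and 8 members passed, 7 of them higher, where 43.3% of all genes passed. The higher ones were Kif20b (1.01), Cdc25b (0.86), Nek2 (0.82), Cenpa (0.78), Cdc25c (0.69), Cdc20 (0.64) and Mad2l1 (0.54), and Smc4 (-0.46) was lower. Without AML mutant array 2 the median was -0.34, and 5 members passed, all lower. The comparisons of the leukaemias use the same arrays as those of Msi2 mutant and wild-type cells, so their values are not independent of each other.

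Most members had more than 1 probe set, and these did not always share a sign. Of 128 probe sets, 111 passed the filter, and 36 genes had more than 1. Fitted as probe sets, 11 passed between the leukaemias in wild-type cells, where 33.5% of all 19413 probe sets did. All 11 were lower in bcCML, from Smc4 (3), Incenp (2), Kif2c (2), Bub3, Foxm1, Racgap1 and Kif11. In mutant cells 8 passed, against 42.5% of all probe sets, with 2 higher for Kif20b and 6 lower for Bub3 (2), Smc4 (2), Smc2 and Ndc80. Between Msi2 mutant and wild-type cells 0 of the 111 passed in either leukaemia in limma, with 1.1% of all probe sets called in AML and 0.067% in bcCML. In 7 to 14 of these 36 genes per comparison the probe sets differed in sign, in none of them with both past the threshold. The count was 7 between the leukaemias in wild-type cells and 12 to 14 in every other comparison. Smc4 was the gene with the most support, at -0.49, -0.56 and -0.72 in its 3 probe sets in wild-type cells. Another probe set of Bub3, which binds checkpoint kinases to kinetochores, fell by 1.20 on the log2 scale there (limma adjusted p = 0.0212), while its brightest, used above, differed by -0.34.

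The other genes of mitosis, 119 tested from a list that leaves out the members, gave 0 calls between Msi2 mutant and wild-type cells in limma. An unadjusted limma p under 0.05 was reached by 8 of them in AML and 6 in bcCML, against 14.2% and 8.32% of all genes. Between the leukaemias the calls were 7 higher and 14 lower in wild-type cells (17.6%, against 36.9% of all genes). In mutant cells they were 8 higher and 19 lower (22.7%, against 45.1% of all genes). Zwint, a kinetochore scaffold protein, averaged 2825 units in wild-type bcCML against 1376 in wild-type AML (1.04 ± 0.14, limma adjusted p = 0.000332), and rose. Zwilch, a subunit of a checkpoint complex of the kinetochore, also rose (0.73 ± 0.20), and Zw10, of the same complex, fell (-0.73 ± 0.17). These genes passed in mutant cells too, with 0.65 for Zwint, 0.77 for Zwilch and -0.93 for Zw10. Pkmyt1, the kinase that holds Cdk1 inactive, fell in both, with log2 differences of -1.72 in mutant cells and -1.30 in wild-type cells, as did Sass6, which seeds centrioles, with -1.33 and -1.37. Esco2, which acetylates cohesin, rose and passed in both mutant cells (1.56 ± 0.33) and wild-type cells (1.14 ± 0.33). Stag2, a cohesin subunit, fell in mutant cells (-0.71 ± 0.11). DNA replication genes gave 0 calls out of 54 between mutant and wild-type cells in limma, with 6 at an unadjusted p under 0.05 in AML and 2 in bcCML, and between the leukaemias 7 of them passed in wild-type cells (4 higher, 3 lower) and 10 in mutant cells (6 higher, 4 lower).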

How the data were processed

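Linear intensity values of 45037 probe sets on each of 12 arrays were deposited. Per the submitters' processing notes the authors made them with GCRMA, of a version not given in the sources used here. This method corrects background by probe sequence, which compresses dim signals (lowest value 4.49). Of the probe sets, 34945 had 1 gene symbol, 932 several and 9160 none listed.

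Log2 was taken without a pseudocount. Probe sets above 16 units on at least 3 arrays were kept, with the brightest per gene (10817 genes). Group means were fitted over all 12 arrays with limma 3.58.1 in R 4.3.3 (8 residual and 2.19 prior degrees of freedom). Tests were two-sided, and p-values were Benjamini-Hochberg adjusted over all genes, with a threshold of 0.05. The fit was checked on simulated data. Precision is limited by having 3 arrays in each group. The p-values measure the spread between samples that the titles call biological replicates.

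The members, gene lists and naming rule were chosen with earlier results of these data known. Named were the called members, the 4 most positive and 4 most negative of each comparison, the smallest p of each role, 8 standard markers of mitosis, and up to 5 called other mitosis genes per direction. Probe sets singled out by name, genes named for a motif, for arrays that did not overlap or for being called under an alternative, and Bub1 and Espl1 were chosen after their values were seen. The Cdk1 promoter stands in for that of Ccnb1.

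Replicate numbers recur in all groups. In bcCML, mutant and wild-type arrays of the same number had correlated deviations from their group means (0.396, 0.364 and 0.278), which was taken as pairing them and met with a replicate block as an alternative; the labels state no such pairing. The correlations in AML were -0.06, -0.12 and -0.03, and no pairing was taken. Alternatives were quantile normalization, a pseudocount of 16, no filter or one at 32 units, the mean over probe sets, the compared arrays only, trended robust eBayes, array weights, replicate blocks, and each array left out in turn.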

Additional observations from a re-analysis of the deposited data

How the results depend on the processing

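With array weights, 6 members passed in AML (Cdc25b, Cdca5, Cenpa, Kif18a, Kif20b and Nek2, all lower), where 9.73% of all genes did. In the average of both leukaemias 1 passed (Mad2l1, all genes 6.93%), and in the difference between leukaemias 1 (Cdc25b, 1.35, all genes 1.16%). Between the leukaemias 31 passed in wild-type cells (all genes, 56.6%) and 6 in mutant cells (all genes, 49.7%). The median of the difference between leukaemias was 0.60 with these weights. In wild-type cells the count of 1 became 2 with a pseudocount of 16 (all genes, 36.6%) and 7 with the mean over probe sets (38.2%). It became 9 with only the arrays compared (34.9%), 5 with trended robust eBayes (38.2%) and 0 with a replicate block over all groups (36.3%). Leaving out 1 array gave 0 to 14 calls in wild-type cells, with 29.0% to 40.2% of all genes called. The count was 14 without AML mutant array 1, 4 without AML mutant array 2 and 3 without array 3 of wild-type AML or array 2 of wild-type bcCML. It was 2 without array 1 of mutant bcCML and 0 without array 1 of wild-type AML or array 3 of wild-type bcCML. In mutant cells leaving out 1 array gave 1 to 8 calls, with 37.0% to 45.3% of all genes called. The count was 8 without AML mutant array 1, 5 without AML mutant array 2 and 1 without bcCML mutant array 3. Only the arrays compared gave 1 in mutant cells (all genes, 39.2%). The median of the difference between leukaemias ran from 0.023 to 0.62 when 1 array was left out. With the replicate block within each leukaemia, the counts between Msi2 mutant and wild-type cells were 0 in both leukaemias, as without it, and no call of a member changed. Under the block over all groups, Smc4 in wild-type cells had an adjusted p of 0.0510.

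Some small uncalled differences changed sign, and the cause was not tested. In AML, array weights gave -0.22 for Ube2c, -0.085 for Cdk1, -0.29 for Plk1, -0.22 for Foxm1 and -0.19 for Cdc20, and the mean over probe sets gave -0.13 for Foxm1. Leaving out 1 array gave ranges in AML of -0.48 to 0.11 for Aurkb, -0.36 to 0.36 for Cdc20, -0.25 to 0.40 for Cdk1, -0.44 to 0.46 for Foxm1, -0.071 to 0.26 for Mki67, -0.44 to 0.37 for Plk1, -0.012 to 0.24 for Smc4, -0.23 to 0.0081 for Top2a and -0.11 to 0.39 for Ube2c. In bcCML, Foxm1 was 0.06 with quantile normalization, 0.10 with the mean over probe sets and 0.16 with array weights, and Cdk1 was 0.022 with array weights, with ranges of -0.21 to 0.23 for Foxm1, -0.21 to 0.13 for Cdk1 and -0.20 to 0.078 for Cdca3 when 1 array was left out. In the difference between leukaemias, array weights gave 0.0003 for Mad2l1 and 0.075 for Ncapg, the mean over probe sets gave 0.021 for Ncapg, and the ranges were -0.52 to 0.027 for Mad2l1 and -0.38 to 0.15 for Ncapg. Between the leukaemias in wild-type cells, Hmmr was -0.13 with the mean over probe sets and -0.0074 with array weights, with ranges of -0.18 to 0.32 for Hmmr and -0.068 to 0.11 for Cdc20.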
